A study of Homo sapiens with 12 samples.

Results

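The lines described here are the 44 lines of the count table whose level answered the drug zotatifin in hypoxia but moved by little in normoxia, out of 60230 lines in all. Of these, 25 were higher with the drug in hypoxia (risers) and 19 were lower (fallers). Levels are CPM, the estimated count of a line divided by the total of its column and scaled to a total of 1 M counts. A member needed a mean of at least 16 CPM over all 12 columns, which 8760 lines had. Its ratio of mean CPM, zotatifin over vehicle, had to be at least 1.8 or at most 0.56 (rounded from 3 decimals) in hypoxia and from 0.8 to 1/0.8 in normoxia. Its ratio of hypoxia to normoxia in vehicle cells had to lie above 0.5 and below 2. The members were chosen by these ratios of mean CPM, which are therefore descriptions, and no test of them supports the choice. Together they fix the relation of all 4 group means, so no comparison between groups is independent of the rule.

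RNA was measured in 22Rv1, a human prostate cancer cell line long in use, which makes the androgen receptor and truncated variants of it. The 4 groups of 3 libraries each were normoxia vehicle, normoxia zotatifin, hypoxia vehicle and hypoxia zotatifin. Hypoxia was 1% oxygen, and the drug was given at 10 nM for 24 hours, starting 24 hours after seeding. The titles say vehicle where the treatment tag says none, and no label names the solvent. Titles number the libraries as biological replicates, yet no label ties them to separate cultures, so the spread between them may be technical. Any other difference between the hypoxia and the normoxia cells cannot be told apart from oxygen.

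Zotatifin binds the RNA helicase eIF4A, a subunit of the cap-binding initiation complex that unwinds the leaders of mRNAs ahead of the scanning ribosome. The drug clamps eIF4A onto purine-rich leader sequences, which blocks scanning on the mRNAs that carry them. Hypoxia stabilises the HIF transcription factors and also lowers cap-dependent translation through the mTOR and eIF2α pathways. The libraries measure RNA abundance and not translation, so they show changes of transcript level that accompany the drug.

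The deposited table does not pair its lines with genes, and line order was not used to name any. Roles, sequences and marker genes of the members are therefore not given, and the label of the cell line was not checked against its markers. Line numbers count data lines from the first, and only the 2 leading risers and the 2 leading fallers are printed by number. Other members are described by their rank in the hypoxia ratio. Column totals ran from 10.4 to 16.5 M estimated counts, with 11.2 ± 0.91 M in hypoxia vehicle cells and 16.1 ± 0.43 M in normoxia vehicle cells (SD, n = 3 each). The lowest estimated count of any member in any library was 71.2.

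The name of the group, an answer to zotatifin in hypoxia alone, was first set beside the normoxia ratio, which the rule used. Most members leaned the same way in normoxia, to a smaller extent. The normoxia ratio was above 1 in 24 of 25 risers (median 1.19, range 0.997 to 1.24) and below 1 in 17 of 19 fallers (median 0.85, range 0.805 to 1.18). Over all lines of at least 16 CPM, 50.9% were above 1 and 49.1% below. Of such lines past the hypoxia limits, 668 of 672 higher ones were above 1 in normoxia and 568 of 575 lower ones below. Of those lines 639 and 549 lay beyond the normoxia window on the same side, where the rule allows no member. The rule thus sets how the members compare with them, and nothing is read from that comparison. Under the other scalings of the libraries, 23 to 25 risers were above 1 in normoxia and 16 or 17 fallers below. In all, 5 risers (20%) lay within 0.9 to 1.1 in normoxia and 20 from 1.1 to 1/0.8. Of the fallers 6 (31.6%) lay within 0.9 to 1.1, 12 from 0.8 to 0.9 and 1 from 1.1 to 1/0.8. Over all lines of at least 16 CPM, 2216 lay within 0.9 to 1.1, 1082 from 0.8 to 0.9 and 1183 from 1.1 to 1/0.8. Within the window, members thus stood more toward an edge than those lines did. In edgeR's quasi-likelihood test, 12 risers were called higher with zotatifin in normoxia, where 25.1% of all 17993 tested lines and 33.3% of lines of at least 16 CPM were called higher. Likewise 11 fallers were called lower in normoxia, against 27.9% of all tested lines and 38.3% of lines of at least 16 CPM. The number of risers called in normoxia was 16 without normoxia vehicle replicate 1 and 8 without replicate 3 of that group. The number of fallers called was 7 without normoxia zotatifin replicate 1. The name thus states the limits of the rule, by which the difference between drug and vehicle was larger in hypoxia. It does not mean lines silent to the drug in normoxia. The rule used the normoxia ratio, so the lean is a description and nothing further is read from it.

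**Figure D1:**
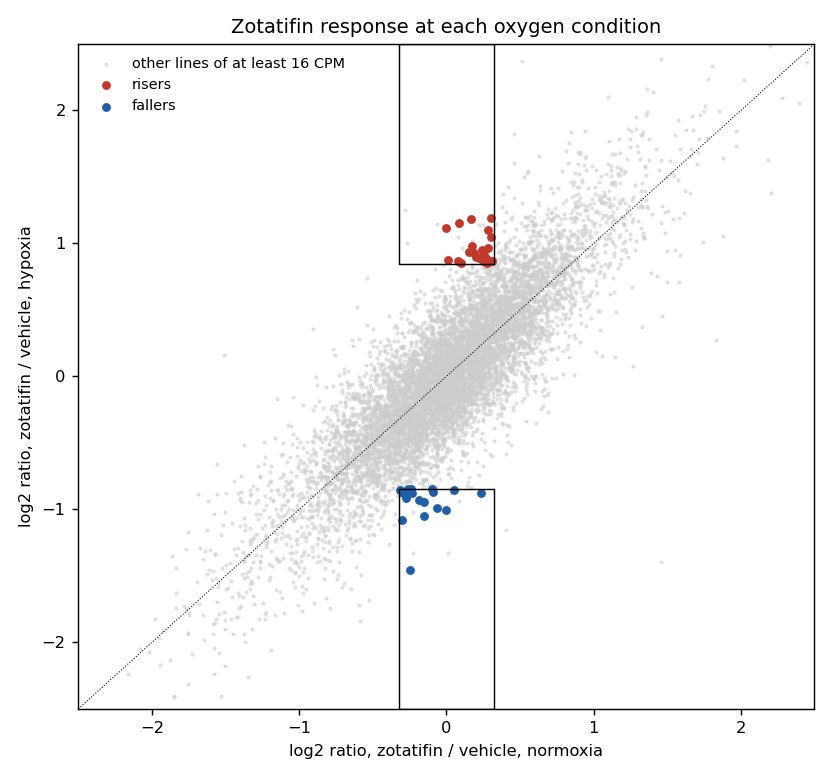
Log2 ratio of mean CPM, zotatifin over vehicle, in normoxia (x) and hypoxia (y) for lines of at least 16 CPM, with risers in red, fallers in blue and boxes at the limits of the rule; the dotted line marks equal ratios and 18 lines beyond 2.5 log2 units or with a group at 0 are not drawn. Most of the 25 risers lie toward the right edge of the upper box, with 5 nearer its middle, and most of the 19 fallers toward the left edge of the lower box; grey points inside a box failed the limit on hypoxia in vehicle cells.

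The members are a small share of the lines that moved in hypoxia. Of lines with at least 16 CPM, 672 reached a ratio of 1.8 with zotatifin in hypoxia, and 639 of those also exceeded 1/0.8 in normoxia. None of the 672 fell below 0.8 in normoxia. The 25 risers make up 3.72% of the 672. On the lower side 575 lines reached the lower limit, 549 of these were also below 0.8 in normoxia, and 2 were above 1/0.8. The 19 fallers make up 3.30% of the 575. A response to zotatifin of this size in hypoxia without one past the window in normoxia was thus the uncommon case in both directions.

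The limits cut through a continuous spread of ratios. The riser nearest the hypoxia limit had a ratio of 1.802 and the nearest line outside had 1.7996. For fallers the nearest ratios were 0.5557 inside and 0.55605 outside. At the normoxia limit, the nearest riser inside had 1.24 and the nearest line outside 1.26, and the nearest faller inside had 0.805 and the nearest line outside 0.7996. At the level limit, the scarcest riser had 17.6 CPM and the next scarcer line 14.9 CPM, while the scarcest faller had 17.4 CPM and the next scarcer line 14.1 CPM. On the limit for hypoxia in vehicle cells, the risers nearest it had ratios of 0.636 and 1.17 and the nearest line outside had 0.499. The fallers nearest it had 0.665 and 1.85, against 0.493 and 2.51 outside.

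Line 49995 had the largest hypoxia ratio among risers, 2.29. Its levels were 12.99, 18.2 and 8.45 CPM in the 3 hypoxia vehicle libraries and 33.3, 31.6 and 25.7 CPM with zotatifin in hypoxia. In normoxia it stood at 17.2, 12.5 and 19.4 CPM with vehicle and 22.5, 17.8 and 20.2 CPM with zotatifin. All 3 hypoxia zotatifin libraries were above the other 9, while the other 3 groups overlapped. The vehicle libraries in hypoxia were uneven, and the log2 ratio in hypoxia ranged from 0.95 to 1.49 when 1 library was left out, against 1.19 with all. This line was the 1 riser not called for the interaction, the zotatifin effect in hypoxia minus that in normoxia. Its log2 difference was 0.94, with an SE of 0.36 taken as the difference over the square root of the test's F statistic.

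Line 15183 had the next largest ratio, 2.27, and the cleanest pattern among the leading risers. It stood at 17.7, 14.5 and 14.03 CPM with vehicle and 36.7, 36.8 and 31.4 CPM with zotatifin in hypoxia. In normoxia it was at 14.6, 11.4 and 13.5 CPM with vehicle and 15.1, 16.7 and 12.5 CPM with zotatifin. The 9 libraries outside the hypoxia zotatifin group lay between 11.4 and 17.7 CPM, and no library of that group came below 31.4 CPM. It was also the riser with the highest hypoxia ratio in vehicle cells, 1.17.

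**Figure D2:**
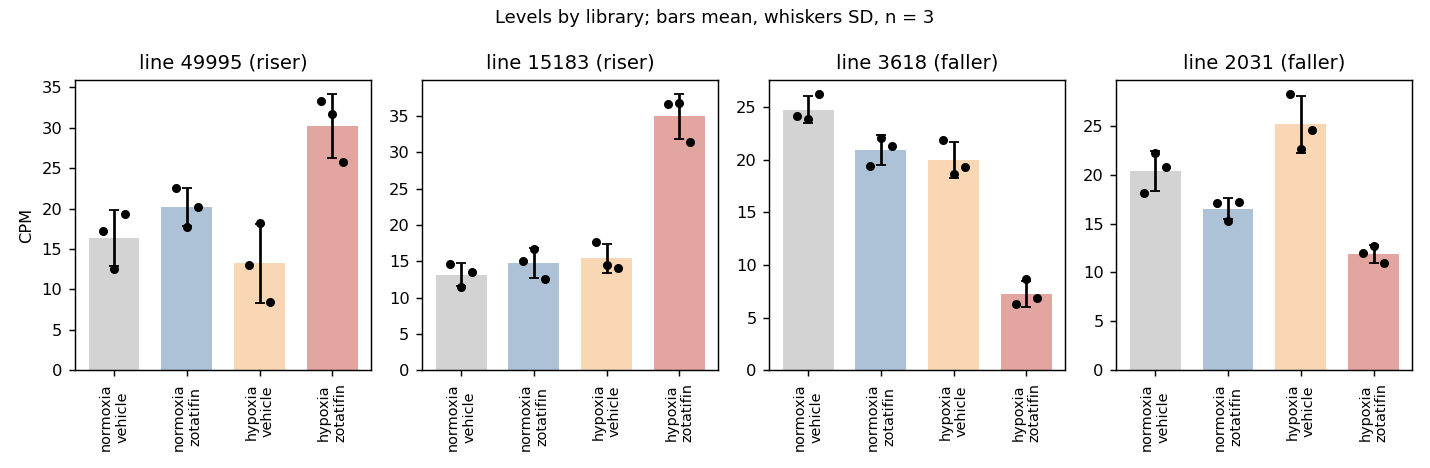
CPM of lines 49995, 15183, 3618 and 2031 in the 4 groups; bars are means, whiskers SD and points the 3 libraries of each group. In both risers the 3 hypoxia zotatifin libraries stand above the other 9, and in both fallers they stand below the other 9.

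The third to the tenth riser had hypoxia ratios from 2.22 down to 1.92. The third stood at 17.2 ± 3.08 CPM with vehicle and 38.3 ± 1.21 CPM with the drug in hypoxia, against 21.2 ± 2.23 and 22.5 ± 0.93 CPM in normoxia (SD, n = 3). The fourth was the flattest of all risers in normoxia, at 63.3 ± 4.88 CPM with vehicle and 63.1 ± 1.28 CPM with zotatifin. In hypoxia its vehicle level was 40.3 ± 2.56 CPM and its zotatifin level 87.2 ± 0.52 CPM, below and above both normoxia groups. The sixth, eighth and ninth reached 33.8, 89.2 and 23.2 CPM with zotatifin in hypoxia, from 16.3, 45.7 and 12.03 CPM with vehicle. The seventh went from 24.0 to 47.4 CPM and the tenth from 16.9 to 32.3 CPM.

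The abundant risers showed the same separation. The most abundant, the fifth by ratio, stood at 228, 228 and 215 CPM with vehicle and 483, 472 and 486 CPM with zotatifin in hypoxia. In normoxia it went from 218 ± 13.1 to 265 ± 2.64 CPM, without overlap, so its libraries separated in both conditions (ratios of 2.15 in hypoxia and 1.22 in normoxia). The next most abundant, 17th by ratio, stood at 206 ± 12.7 CPM in normoxia vehicle, 207 ± 0.76 in normoxia zotatifin and 208 ± 9.65 in hypoxia vehicle cells (SD, n = 3). Its 3 hypoxia zotatifin libraries were at 417, 354 and 371 CPM, against 221 CPM in the highest of the other 9. Its other 3 groups overlapped throughout. The third most abundant went from 87.7 ± 3.86 to 163 ± 5.62 CPM in hypoxia and from 104 ± 4.25 to 120 ± 1.05 CPM in normoxia.

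All 25 risers had 3 hypoxia zotatifin libraries above all 3 hypoxia vehicle libraries, a separation found in 30.5% of all tested lines and 39.1% of lines of at least 16 CPM. In 23 of 25 the 3 libraries were above the other 9, as in 13.5% of tested lines and 17.0% of lines of at least 16 CPM. The rule used these means, so nothing is read from the counts. The mean levels of the risers in hypoxia ran from 12.03 to 224 CPM with vehicle and from 23.2 to 480 CPM with zotatifin. In normoxia the 3 zotatifin libraries lay above the 3 vehicle libraries in 13 risers (29.4% of tested lines, 37.0% of those of at least 16 CPM) and overlapped them in the other 12.

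Among fallers, line 3618 had the smallest hypoxia ratio, 0.364. It went from 21.9, 18.7 and 19.3 CPM with vehicle to 6.33, 8.64 and 6.85 CPM with zotatifin in hypoxia. In normoxia it stood at 24.2, 23.8 and 26.3 CPM with vehicle and 19.4, 22.1 and 21.3 CPM with zotatifin. Each normoxia zotatifin library was below each normoxia vehicle library, so the line was lower with the drug in both conditions (log2 ratios of -1.46 in hypoxia and -0.24 in normoxia). The hypoxia zotatifin mean was 0.348 of the normoxia zotatifin mean and 0.294 of the normoxia vehicle mean.

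Line 2031 was second, with a hypoxia ratio of 0.474. Its hypoxia libraries stood at 28.3, 22.6 and 24.5 CPM with vehicle and 12.01, 12.75 and 10.97 CPM with zotatifin. In normoxia it stood at 18.1, 22.2 and 20.8 CPM with vehicle and 17.1, 15.3 and 17.2 CPM with zotatifin, again without overlap. Its vehicle level was higher in hypoxia than in normoxia (ratio 1.23), the reverse of line 3618 (0.806).

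The most abundant of all members was the third faller. It stood at 630, 621 and 616 CPM with vehicle and 299, 312 and 291 CPM with zotatifin in hypoxia (ratio 0.483). In normoxia it was at 508 ± 32.9 CPM with vehicle and 458 ± 20.7 CPM with zotatifin, and these libraries overlapped (SD, n = 3). The other abundant fallers, 16th and 14th by ratio, went from 182 ± 6.60 to 101 ± 3.17 CPM and from 123 ± 4.42 to 67.8 ± 4.01 CPM in hypoxia. In normoxia the 16th went from 171 ± 7.10 to 138 ± 1.53 CPM, without overlap. The 14th was at 116 ± 9.18 and 121 ± 11.5 CPM in normoxia, and its 3 groups outside hypoxia zotatifin overlapped throughout, like those of the 17th riser.

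**Figure D3:**
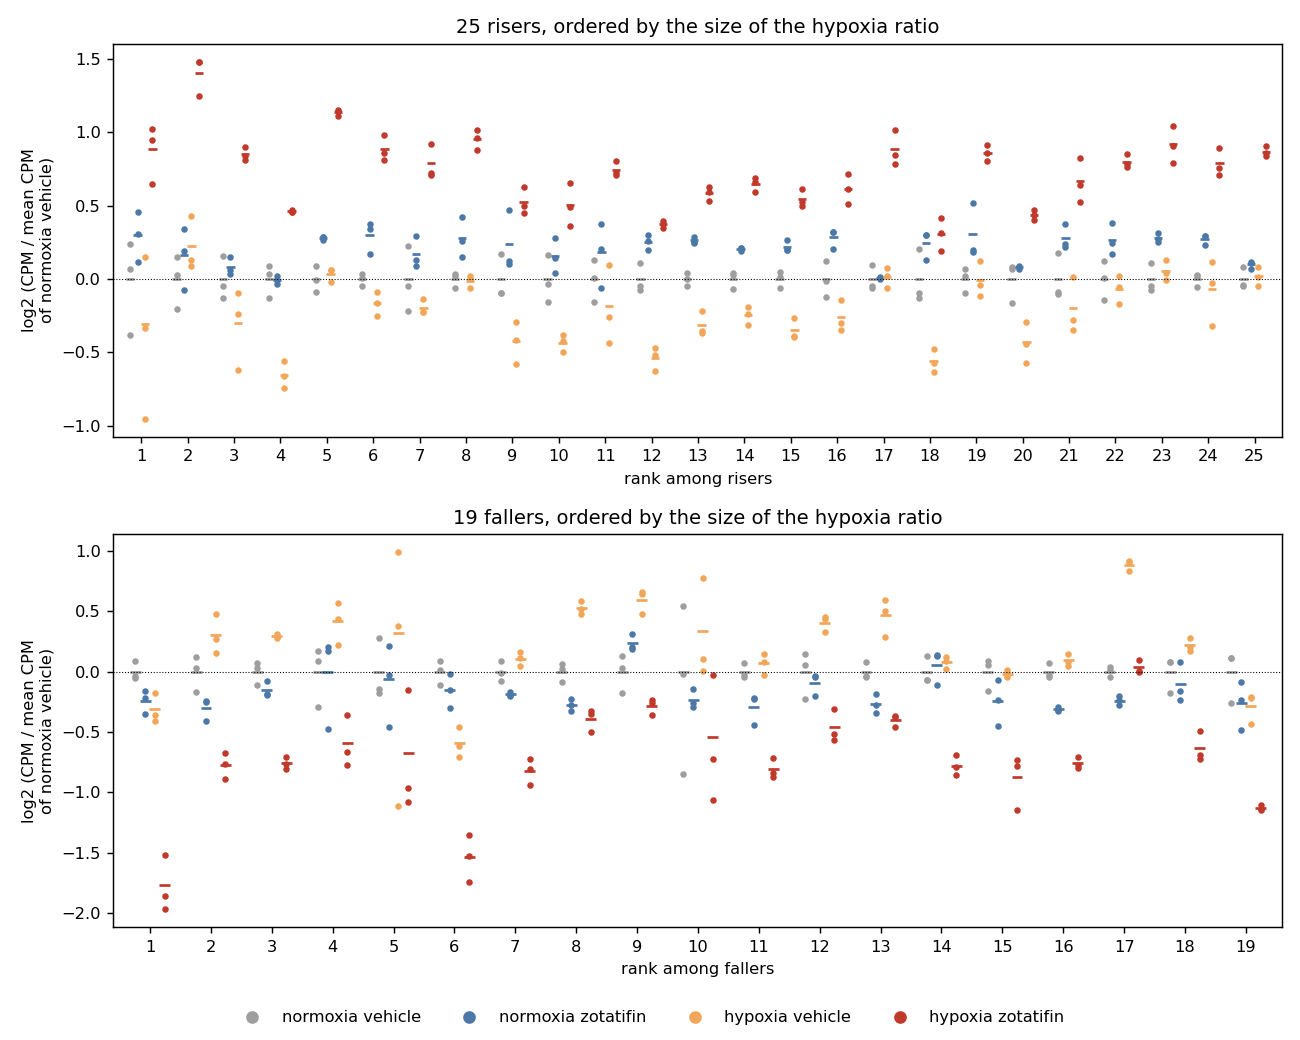
Log2 of CPM over the mean CPM of normoxia vehicle cells for each of the 25 risers (top) and 19 fallers (bottom), ordered by the size of the hypoxia ratio; points are libraries, short bars group means, and colours the 4 groups. The red hypoxia zotatifin points stand at the top for risers and at the bottom for most fallers, and the fallers at ranks 5 and 10 show wide scatter between replicates.

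Of the 19 fallers, 1 overlapped between drug and vehicle in hypoxia, and others scattered widely within groups. The fifth had 23.6, 8.37 and 35.9 CPM with vehicle and 16.3, 8.57 and 9.27 CPM with zotatifin in hypoxia, so its groups overlapped. The tenth had 77.7, 48.8 and 45.5 CPM with vehicle and 44.5, 27.5 and 21.7 CPM with zotatifin, which did not overlap by a small margin. These 2 were the fallers that edgeR did not call for zotatifin in hypoxia or for the interaction. The fourth was at 58.6 ± 6.90 and 29.2 ± 4.44 CPM in hypoxia and at 43.998 ± 7.15 and 43.9 ± 10.6 CPM in normoxia (SD, n = 3). In these 3 fallers 12, 10 and 12 of the 12 estimated counts were not whole numbers.

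The remaining fallers of the leading 10 were more even. The sixth was at 21.1 ± 1.85 CPM with vehicle and 11.005 ± 1.45 CPM with the drug in hypoxia, and its normoxia levels were 31.8 ± 2.23 and 28.6 ± 2.76 CPM. The seventh went from 32.4 to 17.0 CPM and the eighth from 96.4 to 51.1 CPM in hypoxia. The 11th went from 123 ± 7.45 to 67.2 ± 3.89 CPM in hypoxia and from 118 ± 4.92 to 96.0 ± 8.35 CPM in normoxia. The ninth was the 1 faller whose normoxia zotatifin libraries all lay above the vehicle libraries, at 19.5 ± 2.10 CPM with vehicle and 23.0 ± 1.14 CPM with the drug, and it went from 29.5 ± 2.02 to 16.1 ± 0.74 CPM in hypoxia. In all, 18 of 19 fallers had their 3 hypoxia zotatifin libraries below the 3 vehicle libraries (30.4% of tested lines, 38.8% of those of at least 16 CPM). In 14 of 19 these libraries lay below the other 9, as in 12.1% of tested lines and 19.4% of lines of at least 16 CPM. In normoxia 8 fallers had zotatifin libraries below vehicle libraries without overlap (27.1% of tested lines, 34.8% of those of at least 16 CPM).

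In the edgeR fit over all 12 libraries, 24 risers were called higher for the interaction, where 12.1% of tested lines were called, and 17 fallers were called lower, where 8.18% were. Among lines of at least 16 CPM these shares were 20.8% and 13.5%. All 25 risers were called higher with zotatifin in hypoxia (27.7% of tested lines, 37.4% of those of at least 16 CPM) and 17 fallers lower (27.0% and 36.8%). The rule used these contrasts, so the counts are descriptions and support nothing about the choice. The interaction of risers ran from 0.60 to 1.16 on the log2 scale (median 0.75), and that of fallers from -1.16 to -0.50 (median -0.72). Over all lines of at least 16 CPM the median interaction was 0.05. Of all interaction calls 59.8% were positive under TMM scaling (trimmed mean of M values) and 43.3% under upper-quartile scaling.

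The vehicle libraries of the 2 oxygen conditions also differed in many members, in a mean that the rule used. The hypoxia vehicle mean was the lowest of the 4 group means in 20 of 25 risers (26.6% of all lines of at least 16 CPM) and the highest in 15 of 19 fallers (20.5%). In 20 risers the hypoxia vehicle mean lay below the normoxia vehicle mean and the hypoxia zotatifin mean above it. The median ratio of hypoxia to normoxia in vehicle cells was 0.874 for risers and 1.22 for fallers, against 0.971 over all lines of at least 16 CPM. In edgeR's test 14 risers were called lower in hypoxia with vehicle, where 25.9% of tested lines and 42.0% of lines of at least 16 CPM were called lower. Of the fallers 6 were called higher, where 16.7% of tested lines and 15.9% of lines of at least 16 CPM were, and 3 lower. The hypoxia vehicle mean enters both this ratio and the hypoxia ratio that chose the members, so the 2 ratios are not independent. The number of risers below their normoxia vehicle level was 18 to 24 over the 5 scalings tried, and the number of fallers above it was 13 to 16.

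**Figure D4:**
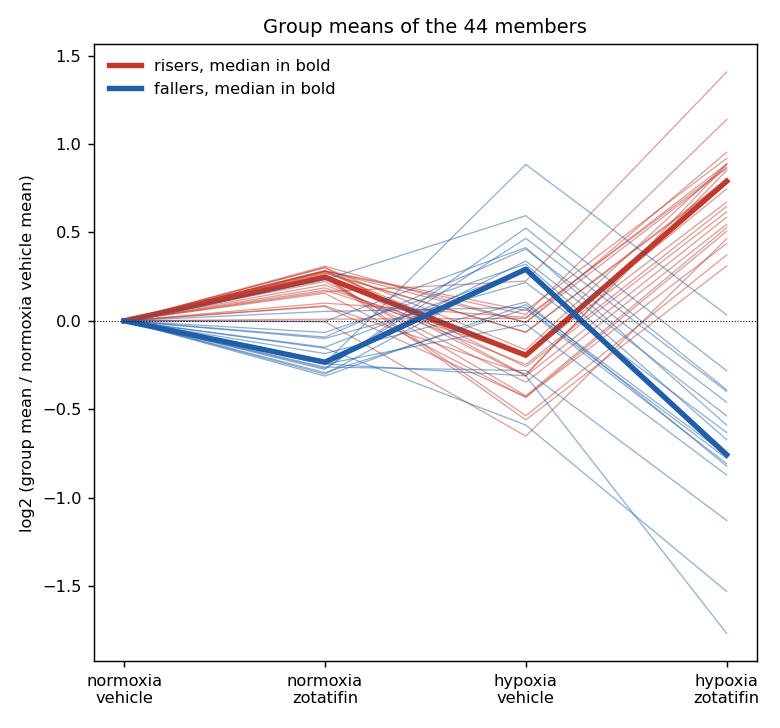
Log2 of each group mean over the normoxia vehicle mean for the 25 risers (red) and 19 fallers (blue); thin lines join the means of 1 member and bold lines the medians. Most risers dip in hypoxia vehicle cells and stand highest in hypoxia zotatifin cells, and most fallers show the reverse.

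With zotatifin in hypoxia, every riser had the highest of its 4 group means, as did 29.3% of all lines of at least 16 CPM. The lowest of the 4 stood there in 18 of 19 fallers, against 32.3% of those lines. The rule used these means, so nothing is read from the counts. The hypoxia zotatifin mean of risers was 1.24 to 2.65 times the normoxia vehicle mean (median 1.73). For fallers it was 0.294 to 1.02 times that mean (median 0.592). The exception was the 17th faller, at 45.9 ± 1.38 CPM in normoxia and 84.7 ± 2.63 CPM in hypoxia with vehicle (SD, n = 3). With zotatifin in hypoxia it was at 46.99 ± 1.805 CPM, near its normoxia vehicle level, and it was at 38.9 ± 0.93 CPM with zotatifin in normoxia.

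The ratios were then read in libraries that had no part in the choice. For each replicate number the rule was applied to the other 2 libraries of every group, and the 4 libraries left out gave new ratios. With 1 library per group left out there is no test. Leaving out numbers 1, 2 and 3 chose 34, 28 and 28 risers. Their median hypoxia ratio was 1.89, 1.95 and 1.85 in the libraries used and 1.71, 1.75 and 1.87 in the libraries left out. Every one of these risers had a hypoxia ratio above 1 in the libraries left out. The limit of 1.8 was passed there by 16 of 34, 10 of 28 and 18 of 28. The ratio in hypoxia exceeded that in normoxia in 33 of 34, 26 of 28 and 28 of 28.

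The same reading for fallers chose 19, 32 and 22 lines. Their median hypoxia ratio was 0.532, 0.533 and 0.538 in the libraries used and 0.569, 0.567 and 0.575 in those left out. The direction held in 19 of 19, 31 of 32 and 22 of 22, and the limit of the rule was passed by 8, 12 and 10. The hypoxia ratio was below the normoxia ratio in 18, 30 and 22 of them. The direction and the larger size in hypoxia thus recurred in nearly all lines chosen this way, while the exact size did not stay past the limit in many. The same shares were not taken over other lines, so nothing particular to these lines is read from the recurrence. As the spread between libraries may be technical, it may also be no more than a repeat measurement.

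The normoxia side recurred less often. In the libraries left out, the normoxia ratio lay within 0.8 to 1/0.8 in 18 of 34, 16 of 28 and 16 of 28 risers. It exceeded 1/0.8 in 16, 11 and 11 of them and was below 0.8 in 0, 1 and 1. For fallers it lay within the window in 14 of 19, 12 of 32 and 19 of 22, and below 0.8 in 4, 20 and 3. All 3 ratio limits were met in the libraries left out by 9, 7 and 10 risers and by 4, 5 and 8 fallers. The lines that left the window did so mostly in the direction of their hypoxia response.

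**Figure D5:**
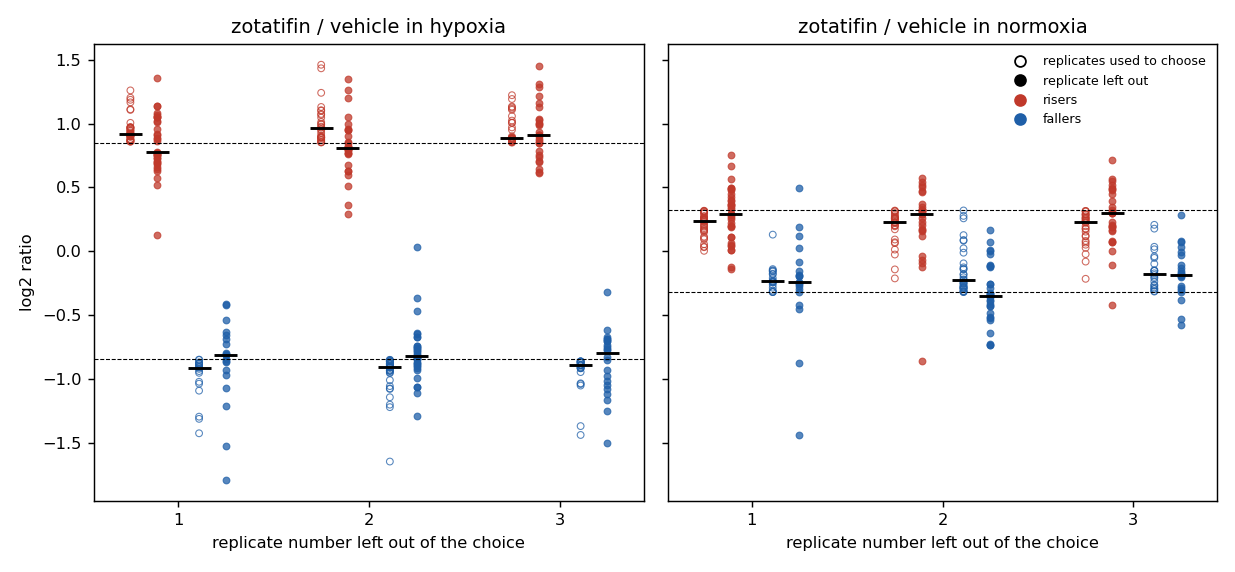
Log2 ratio of zotatifin over vehicle in hypoxia (left) and normoxia (right) for lines chosen without replicate number 1, 2 or 3; open points are ratios in the libraries used, filled points those in the libraries left out, black bars medians, and dashed lines the limits of the rule. In hypoxia all risers stay above 0 and all fallers but 1 stay below 0, while in normoxia many filled points lie beyond the window.

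The vehicle libraries left out were read in the same way. The median ratio of hypoxia to normoxia in vehicle cells for risers was 0.799, 0.805 and 0.812 in the libraries used and 0.923, 0.872 and 0.831 in those left out. In the libraries left out it was below 1 in 22 of 34, 18 of 28 and 22 of 28 lines, while over the means of all libraries it was below 1 in 56.0% of all lines of at least 16 CPM. The counts of the first 2 rounds are near that share, and no recurrence of the lower vehicle level is read from them. For fallers the median was 1.04, 1.21 and 1.253 in the libraries used and 1.13, 1.06 and 1.14 in those left out. Of the 25 risers, 8 were chosen in all 3 of these rounds, 1 in none, and 35 lines that are not risers were chosen in some round. Of the 19 fallers, 6 were chosen in all 3, and 30 other lines in some round. Which lines are members therefore depended on the replicates to a large extent.

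The most similar lines are those that answered zotatifin in normoxia but not in hypoxia by the same limits with the oxygen conditions exchanged. There were 15 of these, 7 higher and 8 lower with the drug in normoxia, against the 25 and 19 found for hypoxia. Fewer lines reached the fold in normoxia at all, with 429 past the upper and 442 past the lower limit. As shares of those, the exchanged rule kept 1.63% and 1.81%, against 3.72% and 3.30% for hypoxia; the difference was not tested. The 7 higher lines had a median ratio of 1.88 in normoxia and 1.13 in hypoxia, and the 8 lower lines 0.537 and 0.888. Their medians lean the same way in both oxygen conditions, as do those of the risers and fallers.

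Beyond the minimum level, the rule set no limit on abundance, on the spread between replicates or on whether counts were whole. Means of 3 libraries pass a limit more easily where the spread is wide, so these measures are not independent of the choice. They are given as descriptions, and no trait of the members is read from them. The mean level over all libraries had a median of 42.3 CPM in risers and 42.9 CPM in fallers, against 47.5 CPM over the 8760 lines of at least 16 CPM. The SD between replicates as a percent of the mean, averaged over the 4 groups, had a median of 6.67% in risers, 8.34% in fallers and 5.49% over those lines. In 15 of 25 risers and 12 of 19 fallers at least 6 of the 12 estimated counts were not whole, against 58.3% of those lines. At least 1 value 0.05 or more from a whole number, as an estimate can be where reads fit more than 1 transcript, was found in 12 risers and 9 fallers, against 35.3% of those lines. Such values were seen in line 49995 and line 3618, and the levels of such lines are uncertain where a near-identical copy shares their reads.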

How the data were processed

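Per the file header and values, the authors deposited estimated counts, 1 column for each of 12 libraries and 1 unnamed line per feature; 33.2% of the values above 0 are not whole within 0.0005. The submitters' processing notes list Salmon, DESeq, DESeq2 and hg38 with no version, role or order, and no source names the annotation. Per the labels, libraries were stranded total RNA libraries. Ratios use CPM by column total. For the tests, the counts were rounded, filtered with filterByExpr (minimum count 10, minimum total 15; 17993 lines, all 44 members included), TMM-scaled and fitted with edgeR 4.0.16 (R 4.3.3) by robust quasi-likelihood with 1 mean per group, two-sided, with Benjamini-Hochberg adjustment over all tested lines and a threshold of 0.05. Log2 differences from edgeR are on the TMM scale. The fit was tested on simulated data. DESeq2 1.42.0, limma 3.58.1, other scalings, limits and left-out libraries were alternatives. Libraries of 1 group differed beyond sampling noise (chi-square per degree of freedom 2.95 to 14.4). The lines printed by number are the 2 risers and 2 fallers with the most extreme hypoxia ratio among members without overlap in hypoxia; also described are those ranked 3 to 10 in that order (ranks in the text are over all members of a direction), the 3 most abundant of each direction and members that stood apart, the last chosen after their values were seen. The members and rules were chosen with earlier results of these data known. Without gene names, gene lists and sequences were not analysed.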

Additional observations from a re-analysis of the deposited data

Results flagged for a closer look

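The zotatifin effect differed between hypoxia and normoxia by edgeR's interaction test in 3 of the 4 lines printed by number. The interaction was 1.06 (log2) in line 15183, -1.16 in line 3618 and -0.73 in line 2031. It was called higher in 24 of 25 risers and lower in 17 of 19 fallers. Of all tested lines 12.1% were called higher and 8.18% lower, and of lines of at least 16 CPM 20.8% and 13.5%. The members were chosen by these same differences, so the tests add no support to the choice. No group has 4 or more libraries, so single libraries were not tested for standing apart.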

How the results depend on the processing

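The number of members depended most on the limits. A fold of 1.5 gave 176 risers and 174 fallers, and a fold of 2 gave 6 and 4. A normoxia window of 0.9 to 1/0.9 left 5 risers and 6 fallers. A minimum of 32 CPM gave 16 risers, and a minimum of 8 CPM gave 32 fallers. Upper-quartile scaling gave 17 risers and 30 fallers, and totals without the 20 most abundant lines gave 35 and 14. Which of the 2 sets was larger thus depended on the scaling. TMM scaling gave 31 risers and 18 fallers. With libraries left out, singly or as a replicate number in all groups, risers numbered 21 to 36 and fallers 13 to 32, the 32 without replicate 2 of all groups. Fallers called lower in normoxia numbered 7 to 12 and risers called higher 8 to 16 with 1 library left out.

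Deviations of same-numbered libraries were nearly uncorrelated (-0.11 to 0.05). With 3 libraries per group this cannot exclude a weak pairing. With the replicate number as a block, edgeR called 3797 lines for the interaction, against 3655 without, with 24 risers and 16 fallers among them; ratios taken within numbers gave 26 risers and 19 fallers. DESeq2 called 3124 lines for the interaction and limma-voom 3370. The cause of these changes was not tested. Without normoxia zotatifin replicate 1, 45.01% of interaction calls were positive, against 59.8% with all libraries. Depth limits the scarcest members most, whose lowest library count was 71.2.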

Other observations

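The limit on hypoxia in vehicle cells kept out 13 lines that met the other conditions, 8 higher and 5 lower with zotatifin in hypoxia. In 12 of the 13, zotatifin in hypoxia moved the line against its difference between oxygen conditions in vehicle cells. All 8 higher lines were lower in hypoxia with vehicle, at 0.175 to 0.499 of normoxia. One of these stood at 264 ± 1.32 CPM with vehicle and 278 ± 10.3 CPM with the drug in normoxia, and at 80.7 ± 3.77 and 167 ± 8.59 CPM in hypoxia (SD, n = 3). Of the 5 lower lines, 4 were higher in hypoxia with vehicle. The most abundant went from 162 ± 21.7 to 944 ± 31.9 CPM with hypoxia in vehicle cells and stood at 465 ± 14.2 CPM with zotatifin in hypoxia, against 138 ± 4.22 CPM with zotatifin in normoxia. Another stood at 9.46 ± 0.83 CPM in normoxia vehicle, 218 ± 13.5 CPM in hypoxia vehicle and 114 ± 5.05 CPM in hypoxia zotatifin cells. The remaining lower line was lower with both, from 521 ± 31.9 to 257 ± 10.2 CPM with hypoxia and to 102 ± 2.57 CPM with zotatifin in hypoxia, and was at 526 ± 16.9 CPM with zotatifin in normoxia. In all 13 the hypoxia zotatifin and hypoxia vehicle libraries did not overlap. Of tested lines 30.5% separated so upward and 30.4% downward, and of lines of at least 16 CPM 39.1% and 38.8%. These lines were picked by the same ratios, the hypoxia vehicle mean enters both, and no test was made.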
